A study of Mus musculus with 6 samples.

Results

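The genes described here are 51 genes of the extracellular matrix: collagens, basement membrane proteins, elastic fibre proteins, small leucine-rich proteoglycans, and the enzymes and inhibitors that process them. They were taken by symbol from the platform annotation of the array. Of the 51, 46 have at least 1 probe there, among 16593 annotated genes, and Col6a3, Col12a1, Fbn1, Efemp2 and Fn1 were not analysed here. RNA came from lymph nodes of 2 groups of mice with 3 arrays each. The first group carried knockouts of Rag2 and of pfp, the perforin gene (Rag2/pfp KO, here KO), and the second was wild type (WT). RAG2 is needed to assemble antigen receptor genes, so mice without it make no mature B or T cells, and perforin lets killer cells open holes in their targets. The extraction text names the Rag2/pfp mouse for all 6 samples. The labels give no strain, age or node, and do not say whether replicates are separate mice. The p-values thus cover only how far these arrays differ from each other, which may be technical spread.

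A lymph node is held together by fibroblastic reticular cells, which lay down a mesh of thin conduits. Each conduit has a core of fibrillar collagen, a coat of microfibrils and a sheath of basement membrane with laminin, collagen IV, nidogen and perlecan, and lymph and small antigens flow through it. A capsule of collagen and elastic fibres, and the walls of blood and lymph vessels, add matrix of their own. Since the RNA came from whole nodes, fewer cells of a type and less RNA per cell cannot be told apart.

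Signals were background-corrected and quantile-normalised, and all levels below are on the resulting log2 scale. A probe counted as detected on an array where its detection p was under 0.05, and the test took probes detected on 3 or more of the 6 arrays. Between 51.3% and 56.3% of all probes were detected on each array. B cell markers averaged 5.66 to 5.94 on the KO arrays and 10.31 to 10.91 on the WT arrays. T cell markers averaged 6.02 to 7.11 on the KO arrays and 10.38 to 10.78 on the WT arrays, and all 6 tested genes of each list were called lower in KO. Lymphocyte transcripts thus separated the groups without overlap. Of 9 lymph node stroma markers, all tested, 1 was called higher and 3 lower, beside 10.2% and 17.3% of all tested genes. The stromal chemokine gene Cxcl13 and Glycam1, of high endothelial venules, fell by 2.04 and 1.95 on the log2 scale, and Ltbr, the lymphotoxin beta receptor gene, rose by 1.53 (limma adjusted p of 0.01, 0.0089 and 0.00346). Bst1 was not above background on any KO array and was at least 2.35-fold lower in KO, a bound set from the dimmest detected signals (limma adjusted p = 0.00864). Ccl19, Ccl21a, Madcam1, Pdpn and Tnfsf11 were not called.

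The arrays also differed in tissue that is not node. The 15 markers of salivary and other exocrine glands averaged 12.19, 13.76 and 13.22 on the KO arrays. On WT replicates 1, 2 and 3 they averaged 5.52, 12.14 and 5.49. Gland transcripts were therefore high on every KO array and on WT replicate 2, with 13 markers detected on each of these arrays, and low on the other WT arrays, with 3 detected. WT replicate 2 thus stood apart from its group, and counts, role medians and several genes are also given without it. Adipocyte markers averaged 10.41 to 10.96 on the KO arrays and 9.96 to 10.09 on the WT arrays.

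Across all roles, matrix transcripts were higher in KO nodes or showed no called difference. Each of the 46 genes had a log2 fold change above 0, although many by little, beside 50.8% of all genes on the array. They include 4 genes too dim to test, and further tested probes of Dcn and Timp3 gave -0.65 and -0.24. With 1 array left out in turn, 14 of the 46 were below 0 at least once. In all, 11 were called higher by limma at an adjusted p under 0.05. They were Col14a1, Mfap4, Serpinh1, Lamb2, Hspg2, Loxl1, Timp3, Tnxb, Lum, Lama2 and Loxl2, with changes between 2.11-fold for Loxl2 and 4.03-fold for Col14a1. None of the 46 was called lower. At an unadjusted limma p under 0.05, 18 of the 42 tested genes were higher and 0 lower, beside 1930 and 2374 of all 9973 tested genes. The 11 were 26.2% of the 42 genes bright enough to test, whereas 10.2% of all 9973 tested genes were called higher and 17.3% lower. Over all 14378 tested probes, 28.6% were called in either direction, 10.1% higher and 18.5% lower. The median log2 fold change was 0.65 over the 46 genes and 0.01 over all genes on the array. All KO arrays lay above all WT arrays for 18 of the 46 genes and below them for 0, while over all genes on the array these shares were 18.4% and 20.1%. Without WT replicate 2, 12 genes were called higher and the median was 0.44, while the share of all tested probes called higher was 19.5%. Without KO replicate 3 the count was 7, and 8 without KO replicate 1 or WT replicate 1, where 3.35%, 4.65% and 4.80% of all tested probes were called higher.

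**Figure D1:**
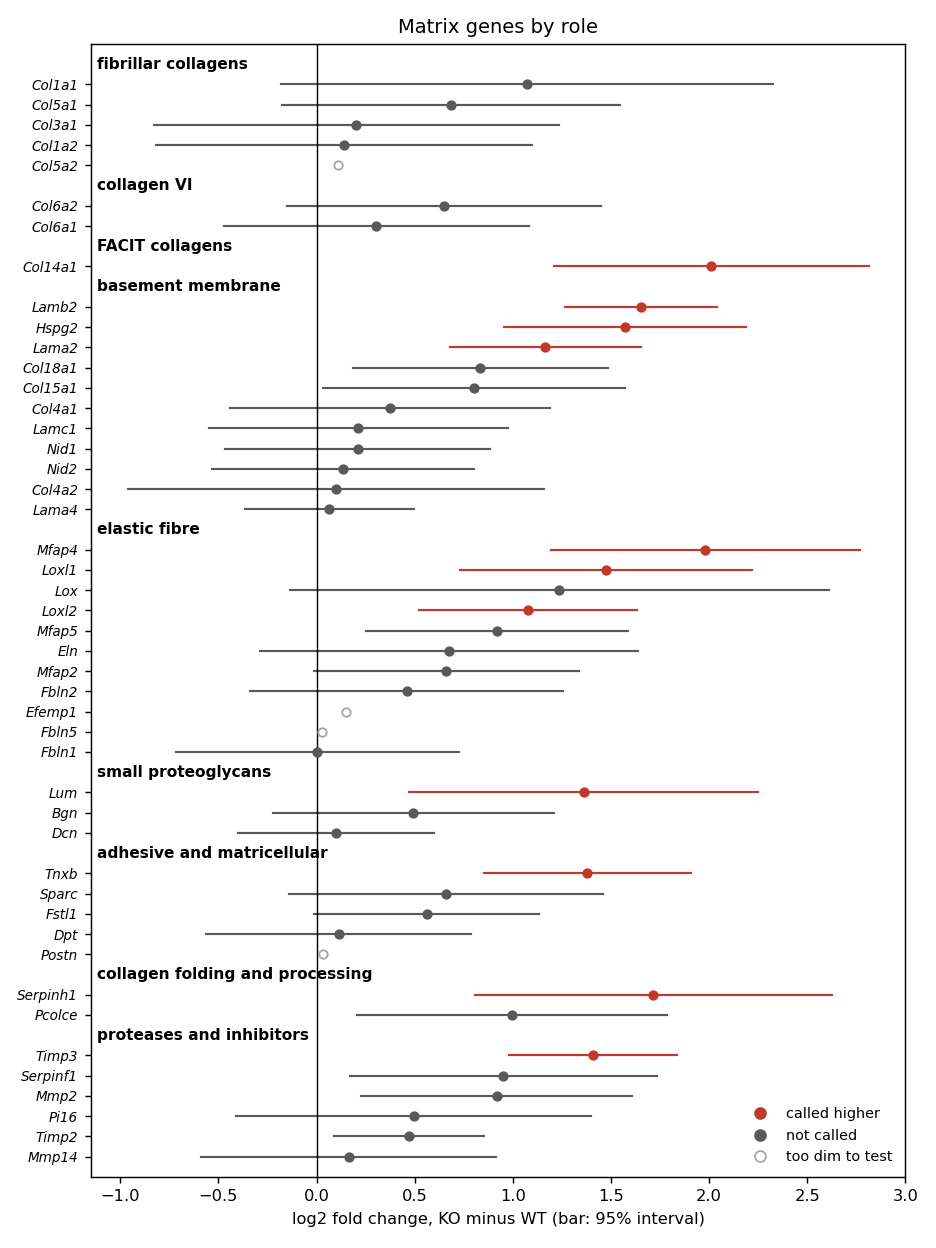
Log2 fold change, KO minus WT, of the 46 matrix genes on the array, grouped by role (x axis, log2 units; points are limma estimates, bars their 95% intervals, n = 3 arrays per group). Filled red points are the 11 genes called higher, grey points were not called, and the 4 open points were too dim to test. All points lie right of 0, and the fibrillar collagens include no called gene.

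The genes did not vary independently between arrays. KO replicate 1 was the highest KO array for 34 of the 42 tested matrix genes (81%), against 42.2% of all tested genes. WT replicate 3 was the highest WT array for 35 of them (83.3%), against 31.1% of all tested genes, and WT replicate 2 the lowest for 30 (71.4%), against 52.4%. The mean over the 46 genes was 10.37, 9.90 and 10.04 on KO replicates 1, 2 and 3. It was 9.32, 9.06 and 9.78 on WT replicates 1, 2 and 3. The lowest KO array thus lay above the highest WT array, by less than the range within either group.

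**Figure D2:**
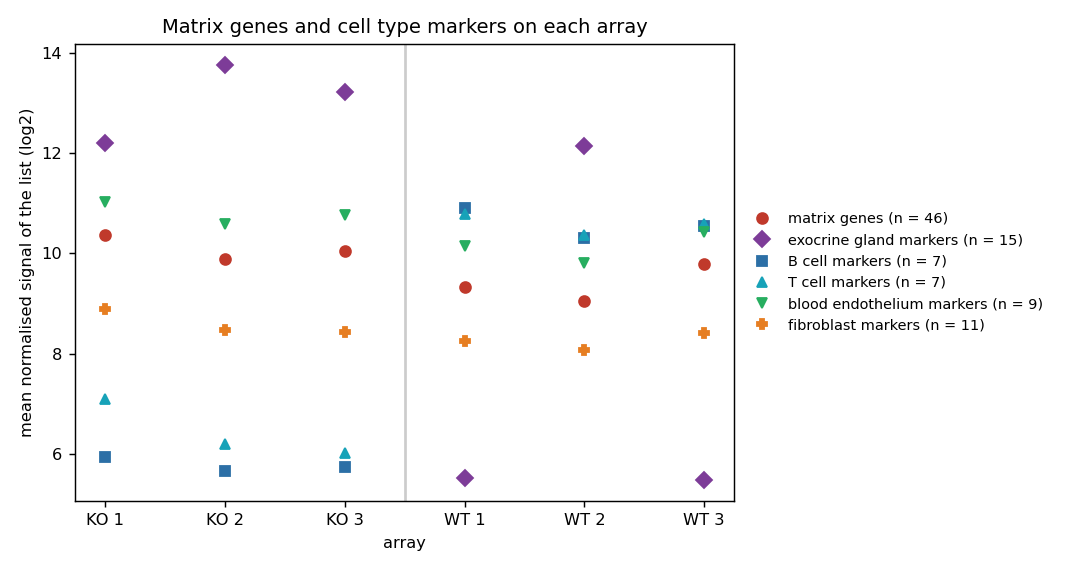
Mean normalised signal (y axis, log2) of the 46 matrix genes and of 5 marker lists on each of the 6 arrays (x axis, KO replicates left, WT replicates right); each symbol is the mean of a list on 1 array. Matrix genes range from 9.90 to 10.37 in KO and from 9.06 to 9.78 in WT, gland markers are high on all KO arrays and on WT replicate 2, and B and T cell markers are low on all KO arrays.

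The fibrillar collagens, which polymerise into the banded fibres that bear load, showed no called change. Of 5 genes on the array 4 were tested, limma called 0 of them, and 0 had an unadjusted p under 0.05. Their median log2 fold change was 0.20, but 0.05 without KO replicate 1, 0.06 without WT replicate 2 and 0.58 without WT replicate 3. Col1a1, the major chain of type I collagen, read 11.65, 10.87 and 11.48 on the KO arrays and 10.16, 9.30 and 11.33 on the WT arrays. Its change was 2.10-fold, but the WT arrays were far apart and WT replicate 3 lay within the KO range, so the groups overlapped (limma adjusted p = 0.159). Col1a2, the partner chain, read 8.12, 7.51 and 7.93 in KO and 7.68, 6.98 and 8.48 in WT. Its log2 fold change was 0.14 (SE 0.40, limma adjusted p = 0.803). Col3a1, the chain of type III collagen and the main collagen of reticular fibres, read 8.86, 7.84 and 8.11 in KO and 7.97, 7.41 and 8.82 in WT. That is a log2 fold change of 0.20 (95% interval -0.83 to 1.23); the interval holds changes in either direction. Col5a1, which nucleates fibrils, had a log2 fold change of 0.68 (limma adjusted p = 0.182), and Col5a2 was not above background on any array. Against WT replicate 2 as the only WT array, the log2 fold change of Col1a1 was 2.03 and that of Col3a1 was 0.86, and without that array they were 0.59 and -0.13.

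The promoter window of Col3a1, from 250 bases before to 50 after the RefSeq start on build GRCm38.p6, is shown as an example of a fibrillar collagen. It was searched on both strands for 3 motifs. The TATA box was taken as the letters TATAAA. The second motif, known as the CAAT box, was taken as CCAAT. The GC box was taken as GGGCGG, which can overlap the second motif when that lies on the minus strand. Capitals mark the 1 match, a TATA box, at chr1:45311288-45311587, plus strand.
Col3a1: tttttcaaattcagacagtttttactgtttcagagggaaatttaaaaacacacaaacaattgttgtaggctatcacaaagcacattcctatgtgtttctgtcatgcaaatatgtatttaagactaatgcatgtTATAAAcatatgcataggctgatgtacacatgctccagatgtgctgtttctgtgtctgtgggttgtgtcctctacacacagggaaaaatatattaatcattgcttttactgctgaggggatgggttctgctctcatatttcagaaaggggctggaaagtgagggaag
Of all 32851 windows in the RefSeq set, 13.6% hold the TATA box, 37.4% the CAAT box and 35.7% the GC box. Windows were found for 31 of the 46 genes, 37 windows in all. Among the 31 windows of genes not called, 3 hold the TATA box, 12 the CAAT box and 18 the GC box. Among the 6 windows of called genes (Lama2, Lamb2, Hspg2, Tnxb, Serpinh1 and Timp3) 0 hold the TATA box, 0 the CAAT box and 4 the GC box. These are matches of letters and not shown to be sites.

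Collagen VI, which forms beaded filaments around cells, had no called gene. Col6a1 read 12.65, 12.12 and 12.28 in KO and 12.17, 11.41 and 12.55 in WT, overlapping groups with a log2 fold change of 0.30 (limma adjusted p = 0.488). A second, equally bright Col6a1 probe gave 0.61, with all KO arrays above all WT arrays (limma adjusted p = 0.139). Col6a2 gave 0.65 (limma adjusted p = 0.176), and 0 of these genes had an unadjusted p under 0.05 in limma.

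Col14a1, a collagen that sits on the surface of fibrils and regulates how they assemble, was the single gene of its class on the array and was called higher. It read 10.34, 9.40 and 9.89 in KO and 8.14, 7.32 and 8.14 in WT, so every KO array lay above every WT array. The mean was 9.88 ± 0.47 in KO and 7.87 ± 0.47 in WT (SD, n = 3 each), a 4.03-fold rise (log2 fold change 2.01, SE 0.33, limma adjusted p = 0.00901). It was called under all 16 alternatives tried, with a log2 fold change of 2.56 against WT replicate 2 alone and 1.74 without it.

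**Figure D3:**
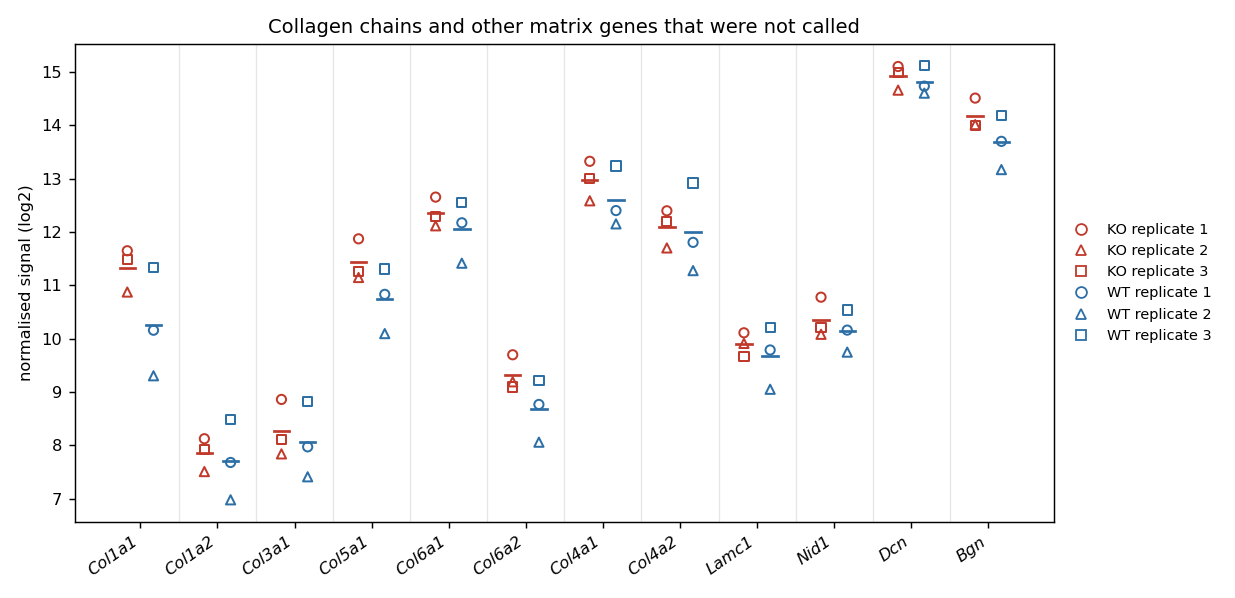
Normalised signal (y axis, log2) of 12 matrix genes that were not called, on each array; KO arrays are red and left, WT arrays blue and right of each gene, symbols give the replicate and bars the group means (n = 3). The groups overlap for every gene shown, WT replicate 2 (triangle) is the lowest WT array for each, and levels of different genes are not comparable because each comes from its own probe.

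Of 11 basement membrane genes, all tested, 3 were called higher (Lamb2, Hspg2 and Lama2) and 0 lower, beside 10.2% and 17.3% of all tested genes. At an unadjusted limma p under 0.05 the counts were 5 and 0, beside 1930 and 2374 of all 9973 tested genes. The median log2 fold change was 0.37, but 0.20 without KO replicate 1, 0.15 without WT replicate 2 and 0.70 without WT replicate 3. Lamb2, the laminin beta 2 chain of vessel and muscle basement membranes, had the smallest adjusted p of the matrix genes. It read 11.25, 11.38 and 10.97 in KO and 9.54, 9.57 and 9.53 in WT. The WT arrays were nearly equal (SD 0.02, n = 3), WT replicate 2 included, and the groups were far apart. The rise was 3.15-fold (log2 fold change 1.65, SE 0.16, 95% interval 1.26 to 2.04, limma adjusted p = 0.00258). Hspg2, perlecan, a large heparan sulphate proteoglycan that binds growth factors, read 12.82, 12.40 and 12.42 in KO and 11.08, 10.52 and 11.34 in WT. It rose 2.97-fold (SE 0.26 on the log2 scale, limma adjusted p = 0.00865) and the groups did not overlap. Lama2, the laminin alpha 2 chain of muscle and nerve sheaths, read 7.57, 7.92 and 7.73 in KO and 6.26, 6.82 and 6.65 in WT, a 2.24-fold rise (limma adjusted p = 0.0102). WT replicate 2 was here the highest of the WT arrays. With the gland signal as a covariate the log2 fold change of Lama2 was 0.84 and no longer called (limma adjusted p = 0.0698), while Lamb2 kept 1.62 (limma adjusted p = 0.0137) and Hspg2 2.17 (limma adjusted p = 0.00951).

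The windows of Lamb2 and Hspg2 are shown because these genes rose most in this role. Capitals mark matches of the 3 motifs, of which Lamb2 (chr9:108479612-108479911, plus strand) has 0 and Hspg2 (chr4:137468553-137468852, plus strand) has 5, all GC boxes.
Lamb2: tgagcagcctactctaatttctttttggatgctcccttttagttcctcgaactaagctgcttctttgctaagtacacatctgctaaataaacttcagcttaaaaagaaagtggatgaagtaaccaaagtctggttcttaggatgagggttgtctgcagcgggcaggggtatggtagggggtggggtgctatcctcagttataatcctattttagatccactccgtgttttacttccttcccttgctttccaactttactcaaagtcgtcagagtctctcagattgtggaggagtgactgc
Hspg2: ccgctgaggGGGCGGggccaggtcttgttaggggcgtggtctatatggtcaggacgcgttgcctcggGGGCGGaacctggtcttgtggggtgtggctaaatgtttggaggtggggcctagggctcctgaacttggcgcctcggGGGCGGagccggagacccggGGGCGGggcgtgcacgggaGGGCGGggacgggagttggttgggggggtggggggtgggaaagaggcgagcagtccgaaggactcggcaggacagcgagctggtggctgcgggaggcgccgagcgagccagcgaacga
These windows stand only for the starts annotated in RefSeq.

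The 2 type IV collagen chains, which assemble into one trimer that forms the basement membrane network, were not called. Col4a1 read 13.33, 12.58 and 13.01 in KO and 12.40, 12.15 and 13.24 in WT (log2 fold change 0.37, 95% interval -0.44 to 1.19, limma adjusted p = 0.417). Col4a2 read 12.40, 11.70 and 12.20 in KO and 11.81, 11.28 and 12.92 in WT (log2 fold change 0.10, 95% interval -0.96 to 1.16, limma adjusted p = 0.875). Both genes had the same order of arrays within each group: KO replicate 1 highest and 2 lowest, WT replicate 3 highest and 2 lowest. This order is not particular to the pair. Of the 42 tested matrix genes, KO replicate 1 was highest for 34 and KO replicate 2 lowest for 27. WT replicate 3 was highest for 35 and WT replicate 2 lowest for 30. Col4a1 and Col4a2 lie head to head, and their promoter windows at chr8:11312777-11313076 (Col4a1, minus strand) and chr8:11312555-11312854 (Col4a2, plus strand) share 78 bases. Capitals mark that shared stretch, read on opposite strands.
Col4a1: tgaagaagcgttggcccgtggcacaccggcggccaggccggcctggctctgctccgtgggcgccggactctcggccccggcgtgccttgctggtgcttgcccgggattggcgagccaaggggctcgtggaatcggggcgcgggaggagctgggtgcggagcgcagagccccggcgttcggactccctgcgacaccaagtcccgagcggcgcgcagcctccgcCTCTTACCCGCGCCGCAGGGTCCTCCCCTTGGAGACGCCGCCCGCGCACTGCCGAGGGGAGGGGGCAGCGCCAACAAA
Col4a2: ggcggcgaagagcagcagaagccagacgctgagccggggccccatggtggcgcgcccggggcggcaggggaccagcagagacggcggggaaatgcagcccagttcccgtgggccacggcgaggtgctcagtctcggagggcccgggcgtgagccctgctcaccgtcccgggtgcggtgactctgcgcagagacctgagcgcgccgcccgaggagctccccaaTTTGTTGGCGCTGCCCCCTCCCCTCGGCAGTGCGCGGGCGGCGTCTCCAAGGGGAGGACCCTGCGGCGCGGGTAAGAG
Neither window holds the TATA box and each holds 1 CAAT box, while Col4a1 holds 1 and Col4a2 holds 3 GC boxes.

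The remaining basement membrane genes were not called. Nid1, the nidogen that links laminin to collagen IV, read 10.78, 10.08 and 10.21 in KO and 10.16, 9.75 and 10.54 in WT (log2 fold change 0.21, 95% interval -0.47 to 0.88). Lamc1, the gamma 1 chain shared by most laminins, gave 0.21, Nid2 0.13 and Lama4, the alpha 4 chain of vessel walls, 0.06. Col15a1 and Col18a1, collagens at the outer face of basement membranes whose ends are cleaved into inhibitors of vessel growth, had all KO arrays above all WT arrays. Their log2 fold changes of 0.80 and 0.83 did not pass the test (limma adjusted p of 0.103 and 0.0616).

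Elastic fibre genes had a median log2 fold change of 0.67, and 0.46 without WT replicate 2. Of 11 genes on the array 9 were tested and 3 were called higher, Mfap4, Loxl1 and Loxl2, beside 10.2% of all tested genes. Mfap4, a glycoprotein of microfibrils that binds elastin and collagen, read 7.88, 7.04 and 7.96 in KO and 5.39, 5.44 and 6.12 in WT. It was detected on all KO arrays and on 1 WT array, so the 3.95-fold rise (SE 0.33 on the log2 scale, limma adjusted p = 0.00896) is set against levels near background. The log2 fold change of Mfap4 was 1.98, but 1.46 with the larger offset of 50 and 1.02 with no background correction, in the authors' log2 values too. Loxl1, the lysyl oxidase that cross-links elastin, read 12.36, 11.35 and 11.93 in KO and 10.52, 10.02 and 10.68 in WT, a 2.78-fold rise with no overlap (limma adjusted p = 0.0178). Loxl2, which cross-links collagen IV, was dim, at 6.74, 6.57 and 7.15 in KO and 5.86, 5.41 and 5.95 in WT, where 2 of 3 arrays detected it (2.11-fold, limma adjusted p = 0.019). The log2 fold change of Loxl2 was 1.08, but 0.75 with the offset of 50 and 0.48 with no background correction or in the authors' log2 values. Loxl1 was not called without KO replicate 3 or WT replicate 1 (limma adjusted p of 0.0662 and 0.0513), nor Loxl2 without KO replicate 1 or 3 (0.0525 and 0.0659).

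**Figure D4:**
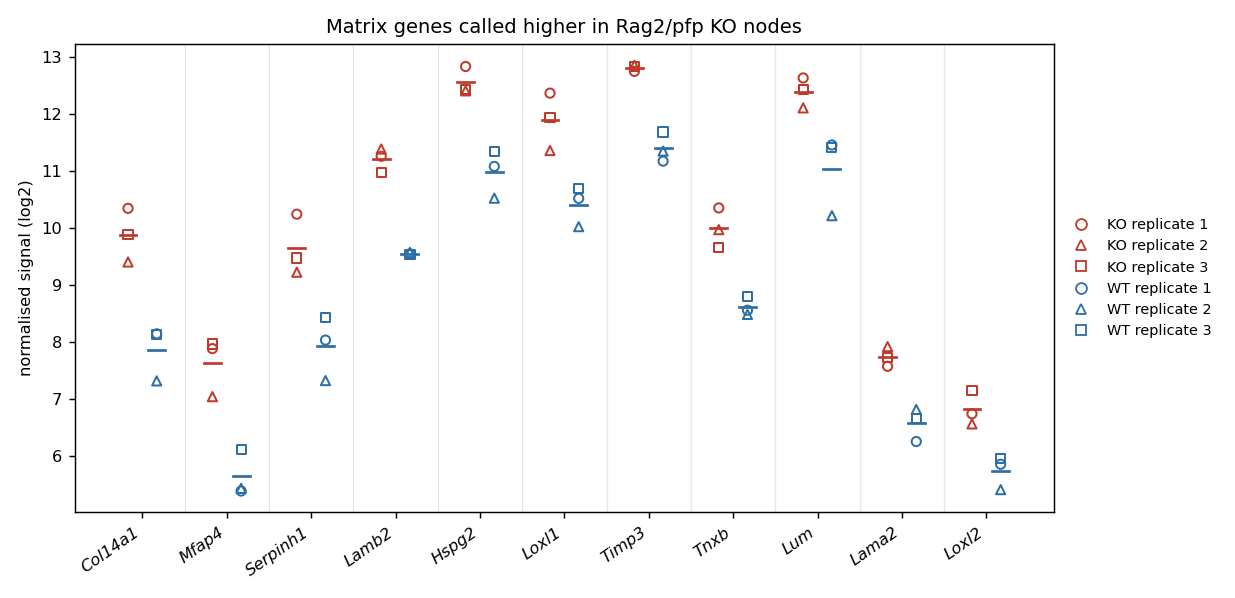
Normalised signal (y axis, log2) of the 11 matrix genes called higher, on each array; KO arrays are red and left, WT arrays blue and right of each gene, symbols give the replicate and bars the group means (n = 3). All KO arrays lie above all WT arrays for each gene, WT replicate 2 (triangle) is not the lowest WT array for Mfap4, Lamb2, Timp3 and Lama2, and levels of different genes are not comparable.

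Eln, elastin, the core protein of the fibre, was not called in the fit of all arrays. It read 10.28, 9.54 and 9.94 in KO and 9.38, 8.45 and 9.91 in WT, with overlap (log2 fold change 0.67, limma adjusted p = 0.229). Lox, the founding lysyl oxidase, read 10.57, 9.96 and 10.63 in KO and 8.04, 10.33 and 9.07 in WT. Its WT value was thus high only on WT replicate 2, the array with gland transcripts. The log2 fold change of Lox was 1.24 over all arrays (limma adjusted p = 0.143), 1.83 without WT replicate 2 (limma adjusted p = 0.00947), 0.05 against that array alone and -0.06 with the gland covariate. Within the KO group, replicate 2 had the highest gland mean and the lowest Lox level. WT replicates 1 and 3 had like gland means and unlike Lox levels. Whether gland content or another feature of WT replicate 2 moved the Lox values was not tested. Mfap5, a microfibril protein that binds fibrillin, had a log2 fold change of 0.92, all KO arrays above all WT arrays, and a limma adjusted p of 0.0505. Mfap2, its relative, gave 0.66, Fbln2 0.46 and Fbln1 0.0037, none called; dimmer probes of Fbln1 and Fbln2 gave 0.89 and 0.61 with no overlap between groups (limma adjusted p of 0.0692 and 0.0681), and Fbln5 and Efemp1 were not above background on any array.

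Of the small leucine-rich proteoglycans, which coat collagen fibrils and set their thickness, only Lum was called higher among the 3. Over all tested genes 10.2% were called higher. The median log2 fold change of the 3 proteoglycan genes was 0.49, and 0.24 without WT replicate 2. Lumican read 12.63, 12.10 and 12.43 in KO and 11.45, 10.21 and 11.41 in WT, a 2.57-fold rise (SE 0.37 on the log2 scale, limma adjusted p = 0.0374). The groups did not overlap, but the call was lost when any single array other than WT replicate 2 was left out (limma adjusted p of 0.0553 to 0.109). Dcn, decorin, was near the top of the scale at 15.10, 14.66 and 14.99 in KO and 14.73, 14.60 and 15.12 in WT. Its log2 fold change of 0.10 has a 95% interval from -0.40 to 0.60, and a second, dimmer decorin probe gave -0.65 (limma adjusted p = 0.167). Bgn, biglycan, read 14.51, 14.01 and 14.00 in KO and 13.70, 13.17 and 14.18 in WT, with WT replicate 3 above KO replicates 2 and 3 (log2 fold change 0.49, limma adjusted p = 0.237).

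Among adhesive and matricellular proteins, which link cells to fibres or tune that contact, Tnxb rose. Tenascin-X read 10.35, 9.97 and 9.66 in KO and 8.56, 8.48 and 8.79 in WT, a 2.60-fold rise with no overlap (limma adjusted p = 0.00802). All 3 tested Tnxb probes were called, at log2 fold changes of 1.38, 1.75 and 1.33, and a further probe was not above background. Sparc, a collagen-binding protein of the matrix, read 13.68, 12.86 and 13.19 in KO and 12.42, 12.16 and 13.16 in WT, overlapping through WT replicate 3 (log2 fold change 0.66, limma adjusted p = 0.17). Fstl1 gave 0.56 and Dpt, dermatopontin, 0.11, neither called, and Postn, periostin, was not above background on any array.

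Serpinh1, the chaperone HSP47 that folds procollagen in the endoplasmic reticulum, was called higher. The fibrillar chains it serves were not called, but whether its change differed from theirs was not tested. Serpinh1 read 10.24, 9.22 and 9.47 in KO and 8.03, 7.32 and 8.43 in WT, with every KO array above every WT array. The rise was 3.28-fold (SE 0.38 on the log2 scale, limma adjusted p = 0.0205), and the call was lost without KO replicate 1 or 3 or WT replicate 1 (limma adjusted p of 0.0532, 0.0609 and 0.0578). Pcolce, which speeds removal of the procollagen C-terminal propeptide, had a log2 fold change of 0.99 and no overlap (limma adjusted p = 0.0649).

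Among proteases and inhibitors, Timp3, the metalloproteinase inhibitor that stays bound to matrix, was alone called higher of 6, beside 10.2% of all tested genes. It read 12.74, 12.85 and 12.83 in KO and 11.17, 11.34 and 11.68 in WT, a 2.66-fold rise (SE 0.18 on the log2 scale, limma adjusted p = 0.00446). The KO arrays agreed closely and all lay above the highest WT array. A second, far dimmer Timp3 probe went the other way (6.48 ± 0.06 in KO and 6.72 ± 0.63 in WT, SD, n = 3 each; log2 fold change -0.24, limma adjusted p = 0.573), and with the mean of both probes the change was 0.58 and not called. Timp2, which both inhibits and helps to activate MMP2, read 13.53, 13.26 and 13.25 in KO and 12.78, 12.83 and 13.01 in WT (log2 fold change 0.47, limma adjusted p = 0.0685). Mmp2, gelatinase A, read 12.24, 11.73 and 11.91 in KO and 10.88, 10.65 and 11.59 in WT (log2 fold change 0.92, limma adjusted p = 0.0557). Both had all KO arrays above all WT arrays and missed the threshold narrowly, as did Serpinf1, the angiogenesis inhibitor PEDF, at 0.95 (limma adjusted p = 0.071). Mmp14, the membrane protease that cleaves pro-MMP2, gave 0.16, and Pi16, a fibroblast surface protein, 0.49, with overlapping groups. The Timp3 window at chr10:86300162-86300461, plus strand, holds 2 matches in capitals, both GC boxes on the minus strand.
Timp3: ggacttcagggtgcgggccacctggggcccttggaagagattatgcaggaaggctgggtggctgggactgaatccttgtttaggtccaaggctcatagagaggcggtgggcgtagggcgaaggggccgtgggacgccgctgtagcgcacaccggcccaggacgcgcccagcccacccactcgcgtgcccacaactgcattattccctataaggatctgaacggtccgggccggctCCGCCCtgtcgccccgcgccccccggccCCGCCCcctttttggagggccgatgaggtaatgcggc

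Genes of the wider matrix pathway were counted from 6 further lists. Of 134 such genes on the array 98 were tested, and 24 were called higher and 2 lower. That is 24.5% higher, beside 10.2% higher and 17.3% lower of all tested genes. The enzymes that modify collagen after translation had 7 called higher and 0 lower of 16 tested. P4ha2 and P4ha1, subunits of the prolyl 4-hydroxylases that stabilise the triple helix, rose 4.09-fold and 2.61-fold (limma adjusted p of 0.00401 and 0.00464), and the lysyl hydroxylase Plod1 2.51-fold. P4ha2 read 9.28, 9.09 and 9.42 in KO and 6.81, 7.64 and 7.24 in WT, groups far apart. The other 4 were Plod2, Bmp1, Fkbp14 and P3h3, at log2 fold changes of 1.18, 1.14, 1.09 and 0.82.

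Among other glycoproteins and proteoglycans 10 were called higher and 0 lower of 26, beside 10.2% and 17.3% of all tested genes. Mgp, matrix Gla protein, an inhibitor of calcification, rose 7.87-fold and read 13.87, 13.46 and 14.34 in KO and 10.57, 10.88 and 11.28 in WT (limma adjusted p = 0.00258). Lamb3, a laminin chain of epithelia, rose 6.47-fold (limma adjusted p = 0.0456), at 9.41, 11.89 and 10.50 in KO and 7.12, 9.19 and 7.40 in WT. Lamb3 was highest on WT replicate 2 and KO replicate 2, the arrays with the most gland transcript in their groups. Whether gland content moved the Lamb3 values was not tested. Matn4, matrilin 4, rose 2.93-fold. Other proteases and inhibitors had 4 higher and 0 lower of 17, beside the same shares of all tested genes. The 4 were led by Timp1 (4.14-fold), Adamts1 (3.37-fold) and the collagenase Mmp13 (2.87-fold), with limma adjusted p of 0.0147, 0.0445 and 0.0165.

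Matrix receptors and the TGF-beta axis had 2 of 18 and 1 of 14 called higher, and 1 called lower in each list. Over all tested genes 10.2% were called higher and 17.3% lower. The counts of higher genes are near the first share, and those of lower genes are below the second. Of 18 receptors tested, Itga5 and Itgb1, which pair as the fibronectin receptor, rose 2.12-fold and 1.78-fold, and Dag1, dystroglycan, a laminin receptor, fell by 1.14 on the log2 scale (limma adjusted p of 0.0178, 0.025 and 0.0251). Of 14 TGF-beta genes, Eng, an endothelial co-receptor, rose 2.34-fold and Skil, a repressor of SMAD signalling, fell by 0.84 on the log2 scale. Of 7 other collagens tested, limma called 0. At an unadjusted limma p under 0.05, 3 were higher and 0 lower, beside 1930 and 2374 of all 9973 tested genes. The wider counts were 34 higher and 5 lower without WT replicate 2, 15 and 1 against it alone, and 36 and 4 with the gland covariate, where 19.5%, 2.54% and 8.68% of all tested probes were called higher. Without KO replicates 1, 2 and 3 in turn, 12, 17 and 10 wider genes were called higher, beside 4.65%, 3.96% and 3.35% of all tested probes. Without WT replicates 1 and 3 in turn, 14 and 18 were, beside 4.80% and 4.72%.

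Markers of other cell types were set beside these genes, in addition to the lymph node stroma list above, in which 1 was called higher and 3 lower of 9. Fibroblast genes outside the matrix averaged 8.43 to 8.89 on the KO arrays and 8.08 to 8.41 on the WT arrays, with 2 higher and 0 lower of 10 tested. Pdgfra, a general fibroblast receptor, had a log2 fold change of -0.33 and was not called, whereas Pdgfrb, of reticular cells and pericytes, was called at 1.31. Smooth muscle and pericyte markers averaged 9.77 to 9.88 on the KO arrays, 9.34 on WT replicate 2, and 8.62 and 8.69 on the other WT arrays, with 3 higher and 0 lower of 8. Blood endothelial markers, all 9 detected on every array, averaged 10.59 to 11.03 in KO and 9.82 to 10.42 in WT, with 1 called higher. Adipocyte markers had 5 higher and 0 lower of 10, and macrophage markers 3 and 0 of 7. Over all tested genes 10.2% were called higher and 17.3% lower, and the 1 of 9 blood endothelial markers is near that share. The part of these cells, or of the loss of lymphocyte transcripts, in the matrix values was not tested.

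The matrix genes were also fitted in ways that treat the gland transcripts. Both fits below lean on WT replicate 2, the only WT array with high gland signal, so they are not separate support. Whether gland tissue or another feature of that array moved the values was not tested. With the mean gland signal as a covariate, 20 matrix genes were called higher and 0 lower, beside 8.68% of all tested probes called higher, with 10 of the 20 among the 11 named first, and the median log2 fold change was 1.13. The genes added were Col1a1, Col5a1, Col6a1, Col6a2, Col15a1, Eln, Mfap2, Bgn, Pcolce and Mmp2. In that fit Col1a1 had a log2 fold change of 2.28 (limma adjusted p = 0.0287) and Eln 1.69 (limma adjusted p = 0.0198), while Col3a1 at 1.11 was not called. Against WT replicate 2 as the only WT array, which assumes that it varies like the KO arrays, 6 were called higher, beside 2.54% of all tested probes: Col14a1, Lamb2, Hspg2, Lum, Timp3 and Col1a1. Col14a1, Lamb2, Hspg2, Timp3, Mfap4 and Tnxb were called with the gland covariate, in the fit of all arrays and with any single array left out. Against WT replicate 2 alone their log2 fold changes were 2.56, 1.63, 2.03, 1.46, 2.19 and 1.51. Timp3 lost its call when its 2 probes were averaged, and Tnxb, with 4 probes, kept it. Averaging is no check on Col14a1, Lamb2, Hspg2 and Mfap4, which have 1 probe each.

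**Figure D5:**
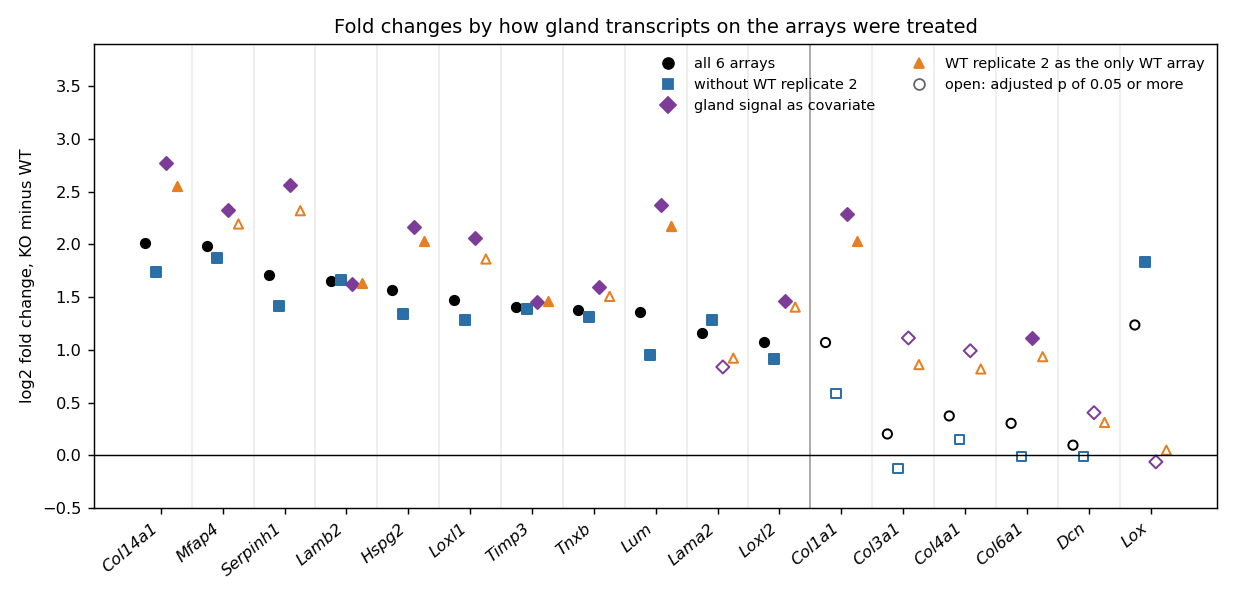
Log2 fold change, KO minus WT (y axis), of the 11 called genes (left of the grey line) and 6 that were not called, in 4 fits: all 6 arrays (black), without WT replicate 2 (blue), with the mean gland signal as a covariate (purple) and with WT replicate 2 as the only WT array (orange); filled symbols have a limma adjusted p under 0.05. Lamb2 and Timp3 barely move between fits, and Col1a1 ranges from 0.59 to 2.28. Lox goes to 0.05 against WT replicate 2 alone and to -0.06 with the gland covariate.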

How the data were processed

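Per the labels' protocols, biotinylated cRNA made from total RNA of lymph nodes was read on 6 Illumina Mouse Ref-8 v2 BeadChips. For each probe the deposited table gives a signal intensity on a linear scale and a detection p-value; per the submitters' processing notes, GenomeStudio 2011.1 was used. The authors' log2 values, deposited separately, differ by at most 5e-07 from quantile-normalised log2 intensities with no background correction, have a median of 7.38 in each column, and served as an alternative. The number of arrays limits the precision.

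All 25697 probes were processed with neqc (normexp background from the detection p-values, offset 16, quantile normalisation) in limma 3.58.1 and R 4.3.3. Probes detected at p under 0.05 on at least 3 of 6 arrays were tested (14378) with lmFit and eBayes, two-sided, as KO minus WT, with no block, adjusted by Benjamini-Hochberg over all of them; 28.6% were called. The offset shrinks changes of dim probes. A gene is its brightest tested probe, or its brightest probe where none was tested; medians cover tested and untested genes. Symbols come from the platform annotation: 23978 probes have 1, 0 several and 1719 none, and a RefSeq table of GRCm38.p6 matched 23962 by Entrez identifier and changed 0. Promoter windows are RefSeq's.

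The genes, lists and tests were chosen with earlier results of these data known. Values on all arrays are given for every called gene and for a fixed set of others (such as Col1a1, Col3a1, Col4a1, Dcn, Eln and Mmp2), and from each wider list up to 3 called genes per direction, the largest changes. Plod2, Bmp1, Fkbp14 and P3h3, which complete a count, and the marker genes were named after their values were seen. The gland covariate is the mean of 15 gland markers. Alternatives changed the background correction, normalisation, filter, probe choice, arrays, replicate block and treatment of gland signal. Same-numbered KO and WT arrays had deviations correlated at 0.49, 0.32 and -0.31, and KO replicate 1 with WT replicate 3 at 0.42. With so few arrays these values cannot show whether the numbers pair them.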

Additional observations from a re-analysis of the deposited data

How the results depend on the processing

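Under other background corrections, scalings, filters and probe rules, between 10 and 14 matrix genes were called higher and 0 lower, against 11 and 0 as reported. In these fits between 5.86% (all probes tested) and 10.6% (detection p under 0.01) of everything tested was called higher, against 10.1% as reported. The median log2 fold change of the matrix genes was above 0 under each of the alternatives tried. Leaving out 1 array gave 7 to 14 genes higher, the lowest without KO replicate 3, and 1805 to 6298 called probes of all kinds, against 4119, with the highest count without WT replicate 2. With the gland covariate 2617 probes and 20 matrix genes were called, and the medians were 1.13 for all matrix genes, 1.11 for fibrillar collagens, 0.99 for the basement membrane and 1.16 for the small proteoglycans. Against WT replicate 2 as the only WT array, a fit chosen after the data were seen, 950 probes and 6 matrix genes were called, with fewer arrays in the fit, and these medians were 0.99, 0.87, 0.84 and 1.01. The replicate block gave 12 matrix genes and 4685 probes, and 37 higher and 4 lower among the wider lists against 24 and 2, and of the matrix calls it changed Pcolce alone (limma adjusted p = 0.0395). Median scaling in place of quantile normalisation shifted the median of all genes by 0.16 and left 11 matrix genes called. Calls that rose were 35.3% of all calls as reported, 47.7% with the gland covariate and 44.5% without WT replicate 2.

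Signs turned only for genes that were not called. Leaving out 1 array gave log2 fold changes of -0.23 to 0.52 for Col1a2, -0.13 to 0.58 for Col3a1, -0.26 to 0.56 for Col4a2, -0.012 to 0.56 for Col6a1, -0.010 to 0.25 for Dcn and -0.0011 to 0.40 for Nid1, the lowest without WT replicate 2 (Nid1: KO replicate 1) and the highest without WT replicate 3. Among the other genes, leaving out 1 array gave a lowest value of -0.19 for Fbln1, -0.13 for Dpt, -0.10 for Lamc1, -0.08 for Mmp14, -0.05 for Postn, -0.04 for Lama4, -0.018 for Nid2 and -0.016 for Fbln5. Without KO replicate 1, Col3a1 gave -0.09 and Col4a2 -0.05. The mean of all probes gave -0.27 for Dcn, and the gland covariate -0.061 for Lox. Fbln1 was -0.019 with median scaling, and Fbln5 and Postn, too dim to test, were below 0 in both fits that use the gland signal or WT replicate 2 alone. The cause was not tested. Dim probes limit Mfap4, Loxl2 and Lama2, and 4 genes were too dim to test.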
